A study of Mus musculus with 6 samples.

Results

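Trophectoderm transcription factors were examined in mouse blastocysts that developed in the uterus or in culture. The set was defined by gene name and holds 10 of the 49993 genes of the count table: Id2, Gata2, Gata3, Cdx2, Eomes, Tfap2a, Tfap2c, Elf5, Hand1 and Dlx3. The study asked which genes go with telomere shortening under culture, and it sequenced total RNA from 3 in vivo and 3 in vitro libraries. All embryos came from females superovulated by injection of 10 IU each of gonadotrophin from pregnant mare serum and, after 48 h, human chorionic gonadotrophin (hCG), and then mated naturally. The in vivo group was collected by uterine flushing on day 3.5, so their whole development took place in the mother. In vitro embryos were collected from the oviduct as zygotes 19 to 21 h after hCG, freed of cumulus cells with hyaluronidase, and grown in potassium-enriched medium (KSOM) under paraffin oil at 37 °C and 5% CO2 until they were blastocysts. Strain, age and genotype were not given in the sources used here. In both groups embryos were picked by stage and morphology, so the cultured group holds only embryos that reached the blastocyst stage.

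The labels name the material in conflicting ways, as a single inner cell mass, as blastocysts and as embryonic stem cells. Keratin 8 and keratin 18, the intermediate filament proteins of the trophectoderm, stood at 195 to 671 and 162 to 544 CPM, counts scaled to a common library size, over the 6 libraries. The inner cell mass factors Pou5f1 and Nanog stood at 24 to 83.9 and 91.5 to 170 CPM. Markers of both lineages were therefore present in every library, and the libraries are called blastocyst libraries here. In such bulk RNA, fewer cells of a type and less RNA per cell cannot be told apart. No label says whether the libraries of a group came from different litters, so p-values measure only the spread between these samples.

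The trophectoderm is the outer epithelium of the blastocyst, which pumps fluid into the cavity and later forms the placenta. In outer cells, YAP enters the nucleus and acts with TEAD4, which turns on Cdx2 and Gata3. CDX2, a caudal-type homeodomain protein, represses Pou5f1 and Nanog in these cells. GATA2 and GATA3 are zinc finger proteins, TFAP2A and TFAP2C (AP-2 alpha and gamma) are basic helix-span-helix proteins, EOMES is a T-box protein, and ELF5 is an ETS factor. ID2 binds no DNA and blocks basic helix-loop-helix (bHLH) partners, which recognise E-box sequences. HAND1 is a bHLH factor of trophoblast giant cells, and DLX3 is a homeodomain factor of the labyrinth. Both belong to later trophoblast.

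The promoter letters of 4 members follow, chosen because they include the 3 genes whose groups did not overlap (Id2, Gata3, Gata2) and the gene whose fold dropped most when 1 library was left out (Elf5). Each run holds the 250 bases upstream of a transcription start in RefSeq on GRCm38.p6, read 5′ to 3′ on the gene's strand. In the Id2 window, chr12:25096093-25096342 on the minus strand, the capitals mark an E-box (CANNTG), the site class that bHLH factors read. In the Gata3 window, chr2:9878601-9878850 on the minus strand, the capitals mark 3 AP-2 matches (GCCNNNGGC). In the second Gata2 window, chr6:88198414-88198663 on the plus strand, they mark 1 AP-2 match and 1 TEAD match (GGAATG, here on the other strand). In the upstream Elf5 window, chr2:103411848-103412097 on the plus strand, they mark 1 TEAD match, also on the other strand. The Elf5 window also holds 4 E-box matches, which are not in capitals. The Gata3 and Gata2 windows lie inside the span of the longest transcript of the gene and contain no exon base.
Id2: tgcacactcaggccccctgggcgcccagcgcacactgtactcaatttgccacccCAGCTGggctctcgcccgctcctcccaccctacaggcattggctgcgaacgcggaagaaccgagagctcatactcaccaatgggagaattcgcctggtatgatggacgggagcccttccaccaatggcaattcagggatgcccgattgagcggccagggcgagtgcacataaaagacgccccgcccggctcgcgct
Gata3: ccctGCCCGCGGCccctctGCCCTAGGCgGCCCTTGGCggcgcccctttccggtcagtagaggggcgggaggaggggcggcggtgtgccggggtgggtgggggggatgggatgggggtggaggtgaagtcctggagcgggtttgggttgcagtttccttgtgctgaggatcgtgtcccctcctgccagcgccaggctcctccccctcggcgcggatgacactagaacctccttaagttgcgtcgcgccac
Gata2: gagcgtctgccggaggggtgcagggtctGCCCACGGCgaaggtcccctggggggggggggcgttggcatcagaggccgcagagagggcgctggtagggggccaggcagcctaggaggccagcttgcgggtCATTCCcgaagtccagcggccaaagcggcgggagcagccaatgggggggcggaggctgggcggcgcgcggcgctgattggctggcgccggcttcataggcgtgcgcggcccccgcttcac
Elf5: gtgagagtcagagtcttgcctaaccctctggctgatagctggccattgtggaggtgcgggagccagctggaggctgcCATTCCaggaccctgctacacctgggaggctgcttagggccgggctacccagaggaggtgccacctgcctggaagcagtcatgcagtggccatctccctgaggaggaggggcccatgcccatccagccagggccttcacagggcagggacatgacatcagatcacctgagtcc

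RefSeq windows were matched for 7 of the 10 members, with 10 windows in all; Tfap2c, Hand1 and Dlx3 were not matched. The AP-2 letters occurred in 3 of the 10 windows (Gata3, Gata2 and Cdx2) and in 13.7% of all 32851 mouse promoter windows of the same length. The TEAD letters occurred in 2 of 10 windows against 12.6% of all windows. E-box letters occurred in 4 of 10 windows against 66.2%. The GATA letters (AGATAA or TGATAA), the caudal homeobox letters (TTTATNG) and the T-box letters (AGGTGTGA) occurred in 0 of 10 windows, against 16.6%, 9.81% and 1.12% of all windows. Both strands were searched for each. These matches describe letters in the window and not binding. The printed windows were rich in G and C, at 62.8% in Id2 and Elf5, 70.0% in Gata3 and 74.0% in Gata2, against a median of 52.4% over all windows.

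The libraries held 6918288 to 17643429 counts, of which a single ribosomal RNA gene, Rn18s-rs5, took 16.7% to 41.7%. In vivo libraries 1 and 2 were close to each other (Spearman's rho 0.942 across genes), while in vivo 3 stood at 0.786 and 0.793 from them. In vitro 2 was nearer to in vivo 1 and 2 (0.873 and 0.857) than in vivo 3 was. The in vitro libraries stood at 0.789 to 0.848 from each other. In vitro 2 also held 1 count from Y-linked genes against 1139 to 1693 in the other 5 libraries. Its Xist counts were 7494, against 8, 25 and 341 in in vivo 1, 2 and 3 and 56 and 16 in in vitro 1 and 3. Embryo sex thus differed between libraries and was not balanced between the groups, and its part in the differences was not tested. Results that depend on 1 library are given with and without it.

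Of the 10 trophectoderm factors, 8 were abundant enough to test, Hand1 was seen almost only in 1 in vivo library, and Dlx3 had no count. None of the 8 passed the test over all genes (edgeR's quasi-likelihood test, adjusted p below 0.05), and neither did any other of the 14301 genes tested (0.00%). Id2 had the smallest p of the members, with a log2 fold change (in vitro relative to in vivo) of 1.87 ± 0.39 (SE), and DESeq2 and limma-voom each called it higher in vitro. Gata3 and Gata2 were higher in every in vitro library than in any in vivo library, with log2 fold changes of 0.94 ± 0.31 and 2.14 ± 1.14. Eomes, Tfap2a and Tfap2c overlapped widely between the groups. At an unadjusted p below 0.05, 3 of 8 members (Id2, Gata3 and Elf5) lay higher in vitro, where 5.11% of all genes tested did so, and 0 of 8 lay lower, where 5.08% did (10.2% in either direction).

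**Figure D1:**
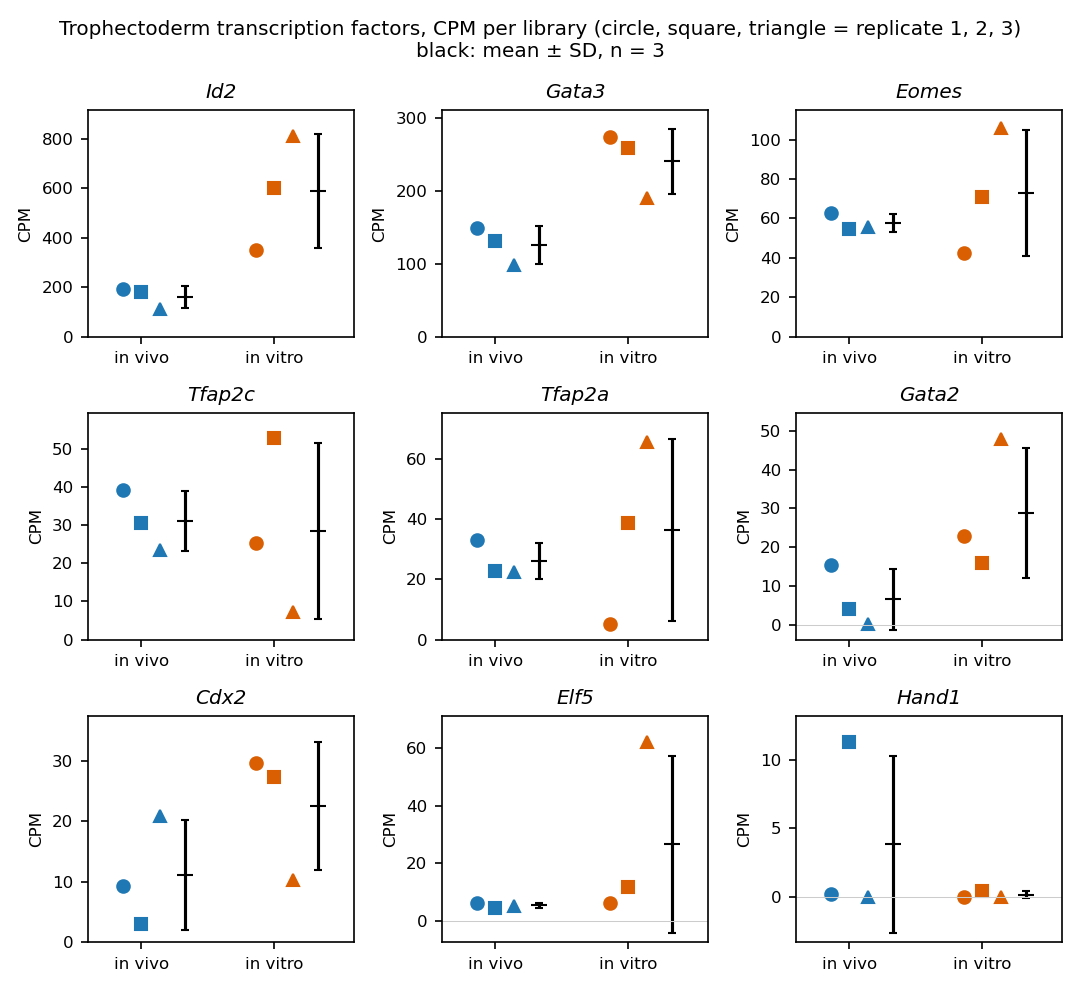
CPM (vertical axis, linear from 0, 1 panel per gene with its own scale) of the 9 trophectoderm factors with any count, in 3 in vivo and 3 in vitro libraries; black marks give the mean ± SD. For Id2, Gata3 and Gata2 every in vitro point lies above every in vivo point, whereas Tfap2a spans 5.25 to 65.7 CPM within the in vitro group alone.

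Id2 was the most abundant of the factors. Its level was 192, 180 and 110 CPM in in vivo libraries 1 to 3 and 350, 601 and 809 CPM in in vitro libraries 1 to 3, from 1541 to 8218 counts per library. The lowest in vitro library lay well above the highest in vivo library. The mean was 161 ± 44.1 CPM in vivo against 587 ± 230 CPM in vitro (SD, n = 3 each). By edgeR's p of 0.000967 Id2 ranked 39 of 14301 genes, yet its adjusted p was 0.306, which is also the smallest adjusted p that edgeR gave any gene.

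DESeq2 called Id2 higher in vitro (log2 fold change 1.88 ± 0.46, adjusted p 0.00521), where it called 3.00% of genes, 1.65% as higher. It did so with each library left out in turn, with adjusted p from 0.00125 to 0.0443. limma-voom also called it (1.57 ± 0.28, adjusted p 0.0423), where 0.713% of genes were called, 0.441% as higher. edgeR without a filter on low counts called it too (adjusted p 0.0013), where 1.40% of genes were called, 0.656% as higher. Over all fits and libraries left out, the adjusted p of Id2 ran from 0.00125 to 0.869 and its log2 fold change from 1.48 to 2.14. Scaling by library totals alone gave the lowest of these folds, and the Id2 groups still did not overlap.

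Gata3, which acts beside Cdx2 downstream of TEAD4, measured 149, 131 and 98 CPM in vivo against 274, 259 and 191 CPM in vitro. Its counts of 1367 to 3545 leave little counting error, and the groups did not overlap. The mean was 126 ± 26 CPM in vivo against 241 ± 44.4 CPM in vitro (SD, n = 3 each), and edgeR gave a p of 0.0143 and an adjusted p of 0.398. DESeq2 and limma-voom gave 0.95 ± 0.37 and 0.84 ± 0.24 on the log2 scale, with adjusted p of 0.148 and 0.11 in a range over all fits of 0.11 to 0.869. Leaving out any library kept the fold between 0.79 and 1.08. By library totals alone the fold was 0.57 and the groups overlapped. Gata3 shares 77 exon bases with the same-strand gene 9230102O04Rik, which had at most 11 counts in a library.

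Gata2, the paralog that in trophoblast maintains placental gene expression with Gata3, varied most of the 8. It measured 15.4, 4.07 and 0.143 CPM in vivo, from 197, 51 and 2 counts, and 22.9, 15.9 and 47.8 CPM in vitro, from 131, 217 and 367 counts. The groups were apart only narrowly, since in vivo 1 at 15.4 CPM lay just under in vitro 2 at 15.9 CPM, and their exact 95% Poisson intervals overlapped (13.3 to 17.7 and 13.8 to 18.1 CPM, covering counting error only). The in vivo libraries differed among themselves by far more than this gap, and the highest library exceeded the lowest by 333-fold, a ratio that rests on the 2 counts of in vivo 3 (0.0174 to 0.518 CPM). edgeR gave an adjusted p of 0.562. The log2 fold change was 1.57 without in vivo 3 and without in vitro 3, and 3.74 without in vivo 1. DESeq2 without in vivo 1 called Gata2 higher (3.79, adjusted p 0.0334, in a range over all fits of 0.0334 to 0.916). Gata2, Gata3 and Id2 made 3 of 8 members with groups that did not overlap and in vitro higher, where 9.24% of all genes tested were so. With library totals alone, Id2 was the 1 member left with separate groups.

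Cdx2 measured 9.36, 3.03 and 20.9 CPM in vivo against 29.7, 27.4 and 10.3 CPM in vitro. In vitro 1 and 2 were above all in vivo libraries, but in vitro 3 was lower than in vivo 3. The mean was 11.1 ± 9.04 CPM in vivo against 22.5 ± 10.6 CPM in vitro (SD, n = 3 each). The log2 fold change of 1.02 ± 0.74 did not pass (edgeR adjusted p 0.682). It ran from 0.57 without in vivo 2 to 1.86 without in vivo 3, and limma-voom, which weights libraries by quality, gave 2.03 ± 0.62 (adjusted p 0.124, in a range over all fits of 0.113 to 0.97).

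Eomes, which acts after Cdx2 and is needed for trophoblast to proliferate, was the most even of the 8 across the libraries. It measured 62.7, 54.6 and 55.8 CPM in vivo against 42.3, 70.7 and 106 CPM in vitro, so that the cultured libraries lay on both sides of a tight in vivo group. The highest library exceeded the lowest 2.5-fold. The log2 fold change was 0.34 ± 0.39 (edgeR adjusted p 0.811). It was -0.03 without in vitro 3 and 0.00 with library totals alone.

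Both AP-2 genes were steady in vivo and scattered in vitro. Tfap2a measured 33.1, 22.8 and 22.4 CPM in vivo against 5.25, 38.8 and 65.7 CPM in vitro, its low value in in vitro 1 resting on 30 counts. Tfap2c, the AP-2 gene that is already active in cleavage stages and acts upstream of Cdx2, measured 39.2, 30.6 and 23.6 CPM in vivo against 25.4, 52.9 and 7.29 CPM in vitro. The low cultured library therefore differed between the paralogs: in vitro 1 for Tfap2a and in vitro 3 for Tfap2c. In vitro 3 had the highest Tfap2a and the lowest Tfap2c of the 6 libraries. The log2 fold changes were 0.49 ± 0.72 for Tfap2a and -0.12 ± 0.64 for Tfap2c, with edgeR adjusted p of 0.864 and 0.968. Both changed sign without in vitro 3, to -0.23 for Tfap2a and 0.34 for Tfap2c. Tfap2c also changed sign without in vivo 1 (0.06), and Tfap2a in limma-voom (-0.06). Tfap2a shares 380 exon bases with the opposite-strand gene Gm26688, which held 10 to 61 counts per library. Without strand marks, reads from that stretch cannot be assigned to either gene.

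Elf5, which locks cells into the trophoblast lineage in a loop with Cdx2 and Eomes, measured 6.24, 4.55 and 5.16 CPM in vivo against 5.95, 11.7 and 62.1 CPM in vitro. In vitro 1 lay within the in vivo range, in vitro 2 lay above it, and in vitro 3 stood far above the rest with 477 counts. The log2 fold change was 2.32 ± 0.86, with a p of 0.0237 and an adjusted p of 0.425 in edgeR, and it was 0.74 without in vitro 3. DESeq2 called Elf5 only when in vitro 1 was left out (2.82, adjusted p 0.0313, in a range over all fits of 0.0313 to 0.869).

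Hand1 gave 142 counts (11.3 CPM, 95% Poisson interval 9.54 to 13.4) in in vivo 2, 2 counts in in vivo 1 (0.156 CPM) and 6 in in vitro 2 (0.439 CPM). It gave 0 counts in in vivo 3, in vitro 1 and in vitro 3, which allows up to 0.215, 0.525 and 0.391 CPM (3 counts). Nearly all Hand1 counts came from in vivo 2, the groups overlapped, and the gene did not pass the filter on low counts. Without that filter edgeR gave a log2 fold change of -4.44 ± 1.96 (adjusted p 0.355), and DESeq2 gave -4.61 with all 6 libraries and 0.94 without in vivo 2. In vivo 2 had the lowest Cdx2 of the 6 libraries. Dlx3 gave 0 counts in every library, which allows up to 0.215 to 0.525 CPM.

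**Figure D2:**
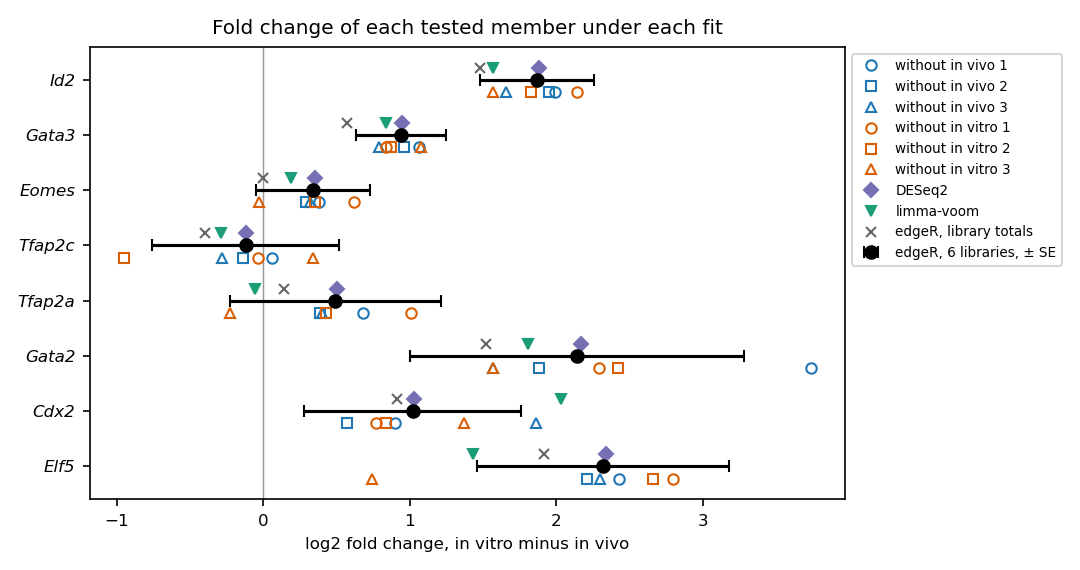
Log2 fold change, in vitro relative to in vivo (horizontal axis), of the 8 tested factors: black circles with bars give edgeR with 6 libraries ± SE, filled symbols other tools, crosses scaling by library totals, and open symbols the edgeR fit without 1 library. Id2 stays between 1.48 and 2.14 over all the fits drawn, whereas the symbols of Eomes, Tfap2a and Tfap2c fall on both sides of 0.

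Over the 8 factors tested, 7 log2 fold changes were positive, against 49.8% of all genes tested, and the median was 0.98 against -0.01 over all genes. With library totals alone the log2 fold changes of all genes tested moved by a median of -0.32, and the median of the factors was 0.74. In vitro 3 held the highest value of 5 of the 8 factors and the lowest of 1, and in vivo 3 held the lowest of 3. The median over the 8 was 0.91 without in vitro 3 and 1.18 without in vivo 3.

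To compare levels between genes, CPM were divided by exon length (RPKM). In vivo the order was Id2 (126 ± 34.7 RPKM), Gata3 (32.4 ± 6.69), Eomes (15.5 ± 1.18), Tfap2c (8.41 ± 2.12), Cdx2 (5.17 ± 4.21), Tfap2a (4.04 ± 0.939), Elf5 (2.27 ± 0.367), Hand1 (2.02 ± 3.42), Gata2 (1.95 ± 2.36) and Dlx3 at 0 (SD, n = 3). Id2, Gata3, Eomes and Tfap2c formed steps, since no library of one overlapped the next. Tfap2c overlapped Cdx2 and Cdx2 overlapped Tfap2a, whereas every Tfap2a value lay above every Elf5 value. Elf5 overlapped Hand1, and Hand1 overlapped Gata2. In vitro, Id2 (461 ± 181 RPKM) and Gata3 (62 ± 11.4) again stood apart from the rest. Behind them Eomes (19.6 ± 8.58), Elf5 (11.4 ± 13.2), Cdx2 (10.5 ± 4.95), Gata2 (8.61 ± 5), Tfap2c (7.7 ± 6.2) and Tfap2a (5.67 ± 4.69) each overlapped the next in order. Elf5 and Gata2 stood lower in the order in vivo than in vitro, and Tfap2c and Tfap2a higher.

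Summed over the 10 genes, the level was 234, 212 and 149 RPKM in vivo and 388, 601 and 771 RPKM in vitro. The groups did not overlap (198 ± 44.1 against 587 ± 192 RPKM, SD, n = 3 each, exact two-sided permutation p 0.1, the smallest that 3 against 3 allows). Id2 accounts for most of this sum. Without it the sums were 82.7, 70.7 and 62 RPKM in vivo and 113, 129 and 135 RPKM in vitro (exact permutation p 0.1). Without Id2 and Gata3 they were 44.3, 37 and 36.8 against 42.3, 62.1 and 86.3 RPKM and the groups overlapped (exact permutation p 0.2). With library totals alone the full sums were 326, 260 and 118 against 321, 645 and 643 RPKM, and in vitro 1 lay below in vivo 1 (exact permutation p 0.2).

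Shares within a library do not depend on library scaling. Id2 made up 64.6%, 66.7% and 58.3% of the summed RPKM in vivo and 70.9%, 78.6% and 82.5% in vitro. Eomes made up 7.22%, 6.92% and 10.1% in vivo and 2.94%, 3.16% and 3.69% in vitro. Tfap2c (3.89% to 4.54% in vivo, 0.255% to 2.38% in vitro) and Tfap2a (1.66% to 2.33% in vivo, 0.21% to 1.32% in vitro) also took smaller shares in every cultured library. Each of these 4 shares reached the smallest exact permutation p of 0.1, which is 0.25 adjusted over the 10 genes. Gata3 kept 15.8% to 16.9% in vivo and took 18.2%, 11.1% and 6.36% in vitro. Its mean share in vitro minus that in vivo was -4.53 percentage points (exact permutation p 0.4). With Id2 left out of the sum, this Gata3 difference changed sign to 5.29 (exact permutation p 0.6). When Id2 was left out of the sum, the mean share in vitro minus that in vivo was -6.5 percentage points for Eomes, -5.38 for Tfap2c and -1.29 for Tfap2a, against -4.81, -2.77 and -1.22 with Id2. The groups then overlapped for all 3, with exact permutation p of 0.3, 0.2 and 0.7.

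**Figure D3:**
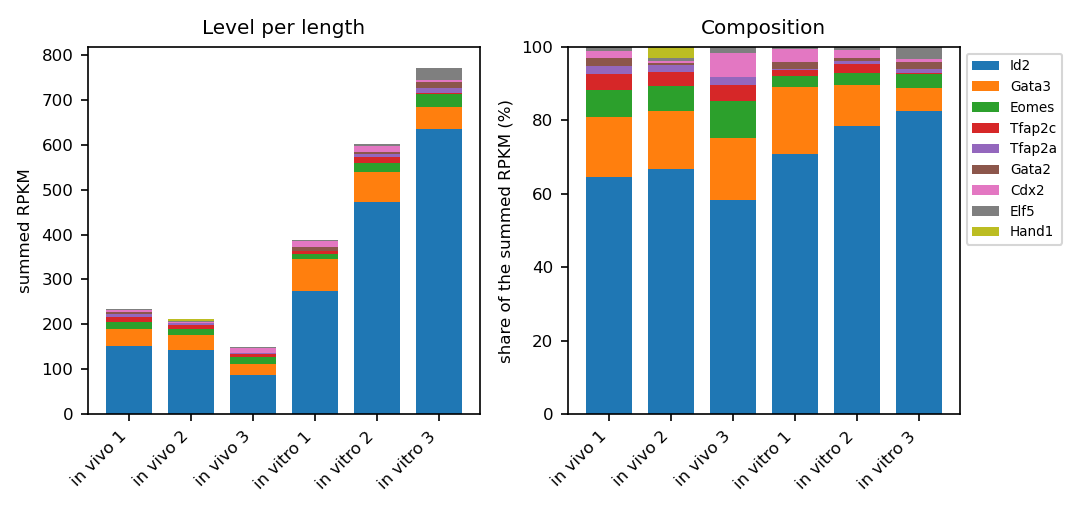
Stacked bars for each of the 6 libraries: summed RPKM of the trophectoderm factors (left, linear axis from 0) and each factor's percent share of that sum (right). The sums run from 149 to 234 RPKM in vivo and from 388 to 771 RPKM in vitro, and the Id2 block takes 58.3% to 66.7% in vivo and 70.9% to 82.5% in vitro.

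Set against inner cell mass factors of the same library, the summed trophectoderm factors had larger ratios in every in vitro library, with Id2 and without it. These ratios were chosen after the values were seen. The summed RPKM of the 10 genes over that of Pou5f1, Nanog and Sox2 was 2.75, 2.15 and 1.77 in vivo and 3.38, 6.18 and 10.8 in vitro (exact permutation p 0.1). Without Id2 the ratio was 0.974, 0.716 and 0.738 in vivo and 0.983, 1.32 and 1.9 in vitro, and the gap between in vivo 1 and in vitro 1 was small (exact permutation p 0.1). It did not hold once Gata3 was also left out. The sum was then 42.3 RPKM in in vitro 1 and 44.3 RPKM in in vivo 1. The Pou5f1, Nanog and Sox2 sums of these libraries were 115 and 84.9 RPKM, so in vitro 1 had the lower ratio. The ratio of Cdx2 to Pou5f1, which repress each other, was 0.239, 0.141 and 0.502 in vivo and 1.35, 1.27 and 0.866 in vitro (exact permutation p 0.1), although neither gene alone had separate groups. Pou5f1 itself measured 79, 43.4 and 83.9 CPM in vivo against 44.4, 43.5 and 24 CPM in vitro (log2 fold change -0.88 ± 0.41, edgeR adjusted p 0.505). The sum of Pou5f1, Nanog and Sox2 was 84 to 98.7 RPKM in vivo and 71.1 to 115 RPKM in vitro. Over the trophectoderm keratins Krt8 and Krt18, the 10 factors came to 0.405, 0.734 and 0.665 in vivo and 1.22, 0.847 and 1.16 in vitro (exact permutation p 0.1). This separation did not hold without Id2. The factors then summed to 129 RPKM in in vitro 2 and 62 RPKM in in vivo 3. The keratin sums of these libraries were 710 and 224 RPKM, so in vitro 2 had the lower ratio.

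Across the 6 libraries the factors did not follow one pattern. Likeness was measured as the root mean square difference of log2 CPM after centring each gene on its own mean, so that 0 is an identical pattern. Genes were not scaled to the same spread, so genes that vary little lie close even where their directions differ. The smallest distances were those of Eomes with Gata3 (0.65), Gata3 with Id2 (0.67) and Elf5 with Id2 (0.74). The largest was that of Gata2 with Tfap2c (2.68). Eomes and Gata3 did not share an order of libraries: in vitro 1 was the lowest for Eomes (-0.56) and the highest for Gata3 (0.67). The paralogs did not have the smallest distances: Tfap2a and Tfap2c stood at 1.6, and Gata2 and Gata3 at 1.96. Gata2 and Gata3 were both lowest in in vivo 3, but by unlike amounts (-4.72 and -0.81). The Gata2 value there rests on 2 counts, so their distance does not show that their directions differ. Cdx2 was nearest to Gata3 (0.97) and farther from Tfap2c (1.33), Eomes (1.25) and Elf5 (1.66).

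**Figure D4:**
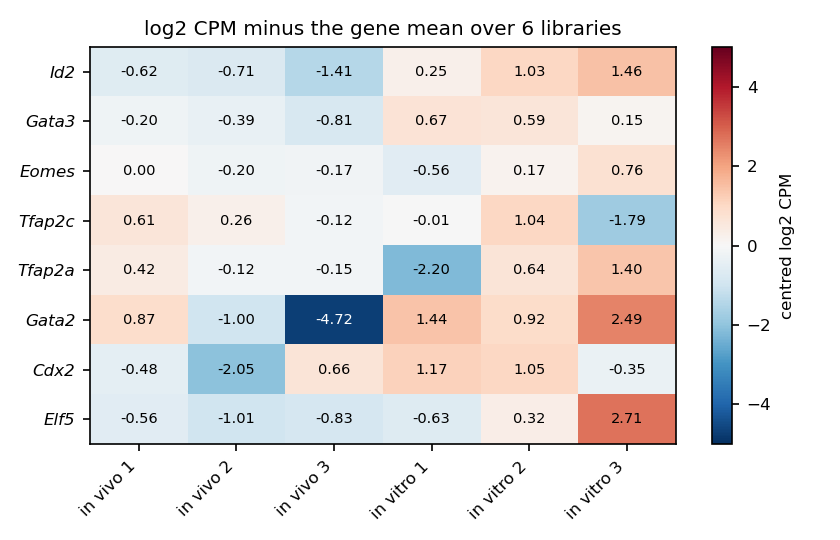
Log2 CPM of the 8 tested factors in each library minus the gene's mean over the 6 libraries (colour and printed value; red above, blue below the mean). In vivo 3 is at -4.72 for Gata2, and in vitro 3 is at 2.71 for Elf5 and at -1.79 for Tfap2c.

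The 2 nearest genes to each factor were then taken from 8157 genes with a mean of at least 10 CPM. Eomes was matched by the zinc finger gene Zfp932 (0.07) and by the G protein subunit gene Gng5 (0.08). Gata3 was matched by the DNA repair genes Fancd2 (0.1) and Brca1 (0.12), and Id2 by Orc1 (0.21), a subunit of the replication origin complex, and Wtap (0.23), a subunit of the RNA methylation complex. Orc1 measured 17.8, 14.8 and 7.45 CPM in vivo against 23.1, 36.9 and 53.5 CPM in vitro, in the same order of libraries as Id2. Tfap2a was followed by Gm6871 (0.14) and the ubiquitin ligase gene Wwp1 (0.2), and Tfap2c by Bcap31 (0.18), which encodes a protein of the endoplasmic reticulum, and Phrf1 (0.22). Cdx2 was followed by Fam189a2 (0.31) and the muscle-type phosphoglycerate mutase gene Pgam2 (0.33), Elf5 by the folate enzyme gene Aldh1l1 (0.3) and Zkscan8 (0.35), and Gata2 by Fbxl12 (0.39) and the receptor signalling inhibitor Spry1 (0.46). These matches describe 6 libraries, and 2 of these 16 were also among the nearest when 1 minus Pearson's correlation was used.

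The pathway around the factors was described through fixed lists. edgeR called 0 genes in each list, as over all genes. Over all genes tested, 5.11% had an unadjusted p below 0.05 with in vitro higher and 5.08% with in vitro lower. DESeq2 called 3.00% of all genes, 1.65% as higher. The counts of each list below are to be read beside these shares. Of 20 upstream regulators of trophectoderm fate (TEAD factors, YAP and its inhibitors, Notch genes and others) 19 were tested. Of these, 4 had an unadjusted p below 0.05 with in vitro higher and 0 with in vitro lower, and the median log2 fold change was 0.53. Those 4 were Sbno1, a Notch pathway helicase (1.05 ± 0.38), the YAP-inhibiting kinase Lats1 (2.01 ± 0.75), the YAP-binding angiomotin Amotl2 (1.62 ± 0.71) and Klf5, a zinc finger factor of early trophectoderm (0.86 ± 0.37). Among the activators of Cdx2, Tead4 and Yap1 overlapped between the groups. Tead4 measured 27.9, 12.8 and 37.5 CPM in vivo against 15.6, 42.9 and 24.1 CPM in vitro (0.08 ± 0.55), and Yap1 measured 34.4, 36.1 and 54.6 CPM in vivo against 63.5, 62.6 and 39.1 CPM in vitro (0.40 ± 0.37). The YAP paralog Wwtr1 (TAZ) measured 84.3, 54.6 and 46 CPM in vivo against 103, 98.8 and 99.9 CPM in vitro, with no overlap (0.70 ± 0.34, edgeR adjusted p 0.523). DESeq2 called 0 genes of this list.

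Of 26 other trophoblast transcription factors, 20 were tested, and the median was 0.86. Of the 20, 7 had an unadjusted p below 0.05 with in vitro higher and 1 with in vitro lower (over all genes, 5.11% and 5.08%). Tcf7l1, a repressor at Wnt target genes, had a log2 fold change of 2.08 ± 0.73, and Tfeb, a factor of placental vessels and lysosomes, 1.42 ± 0.5. The bHLH repressor Bhlhe40 had 5.09 ± 1.79, with 74.9 CPM in in vitro 3, 6.82 and 1.9 CPM in the other in vitro libraries and 0 to 2.34 CPM in vivo. DESeq2 called Grhl3 and Hopx higher in vitro. Grhl3, an epithelial barrier factor, had 0 counts in all in vivo libraries and 2.86 to 8.41 CPM in vitro, and Hopx, a homeodomain-only protein, had 0 to 0.234 CPM in vivo and 2.73 to 9.8 CPM in vitro.

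Of 52 trophectoderm structural and transport genes, 44 were tested. Of these, 12 had an unadjusted p below 0.05 with in vitro higher and 1 with in vitro lower (over all genes, 5.11% and 5.08%). The median was 0.62. The FGF receptor Fgfr2, which also marks primitive endoderm, had 1.25 ± 0.33, and Ddah1, which degrades methylated arginine, 1.31 ± 0.38. The tight junction protein Cldn6 was lower in every in vitro library, with 85.1, 53.5 and 19.5 CPM in vivo against 2.27, 10.5 and 2.73 CPM in vitro (-3.32 ± 0.77, edgeR adjusted p 0.315). DESeq2 called Fgfr2 higher and Cldn6 lower in vitro. The keratins overlapped between the groups (0.80 ± 0.45 for Krt8 and 0.48 ± 0.45 for Krt18).

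Of 25 paralogs of the factors, 11 had no count and 10 were tested, 0 with an unadjusted p below 0.05. Gata4 and Gata6, which mark primitive endoderm, had groups that did not overlap, with log2 fold changes of 2.29 ± 1.02 and 0.68 ± 0.31. These were 2 of 10 tested, where 9.24% of all genes tested were apart with in vitro higher. Gata4 measured 10.7, 0.319 and 9.25 CPM in vivo against 42.3, 46.2 and 10.8 CPM in vitro. Its groups were apart only narrowly, since in vivo 1 (137 counts) lay just under in vitro 3 (83 counts). The ETS relatives Elf2 and Elf3 had 1.00 ± 0.56 and 0.70 ± 0.51 with overlapping groups. Cdx4 had no count, and Cdx1 had 158 counts in in vivo 1, 98 in in vitro 3 and 0 to 24 elsewhere. Id1 and Id3, which share the dimerisation domain of Id2, measured 0.26 to 24 and 7.74 to 139 CPM over the 6 libraries, with log2 fold changes of 0.67 ± 1.41 and -0.68 ± 0.88. Id4, which did not pass the filter on low counts, had 0 to 4 counts in the in vivo libraries (0 to 0.319 CPM) and 5 to 29 in the in vitro libraries (0.651 to 2.12 CPM), so its groups did not overlap either. The difference between Id2 and these paralogs was not tested.

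Of 30 epiblast and pluripotency markers 27 were tested. The median was -0.04, with 13 positive and 14 negative values. An unadjusted p below 0.05 was found for 4 with in vitro higher and 1 with in vitro lower (over all genes, 5.11% and 5.08%). The embryonic stem cell factor Sox2 (1.35 ± 0.52), the RNA-binding protein gene L1td1 (0.92 ± 0.37) and the T-box gene Tbx3 (1.08 ± 0.46) were among the former, with Klf5, which is on both lists, and the adhesion gene Pecam1 (-2.72 ± 1.16) was the latter. Nanog had -0.26 ± 0.35. DESeq2 called Nodal higher, a gene with 0 counts in vivo.

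Of 26 primitive endoderm markers 24 were tested, with 22 positive log2 fold changes and a median of 0.94. Of the 24, 7 had an unadjusted p below 0.05 with in vitro higher and 2 with in vitro lower (over all genes, 5.11% and 5.08%). Sox7 (0 to 0.0717 CPM in vivo, 4.17 to 31.1 CPM in vitro), Foxq1 (0.239 to 5.46 and 15.6 to 99.4 CPM), the laminin gene Lama1 (4.47 to 23.9 and 50.9 to 221 CPM) and Foxa2 (0 and 2.86 to 34.3 CPM) led this list. Sox17 overlapped between the groups (0.96 ± 0.75). DESeq2 called 7 genes of the list higher and 1 lower, where it called 3.00% of all genes, 1.65% as higher. The summed level of the list was 172 to 418 RPKM in vivo and 257 to 709 RPKM in vitro. These markers of another lineage lay, on the median, in the same direction as the trophectoderm factors, and their part in the differences of the factors was not tested.

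**Figure D5:**
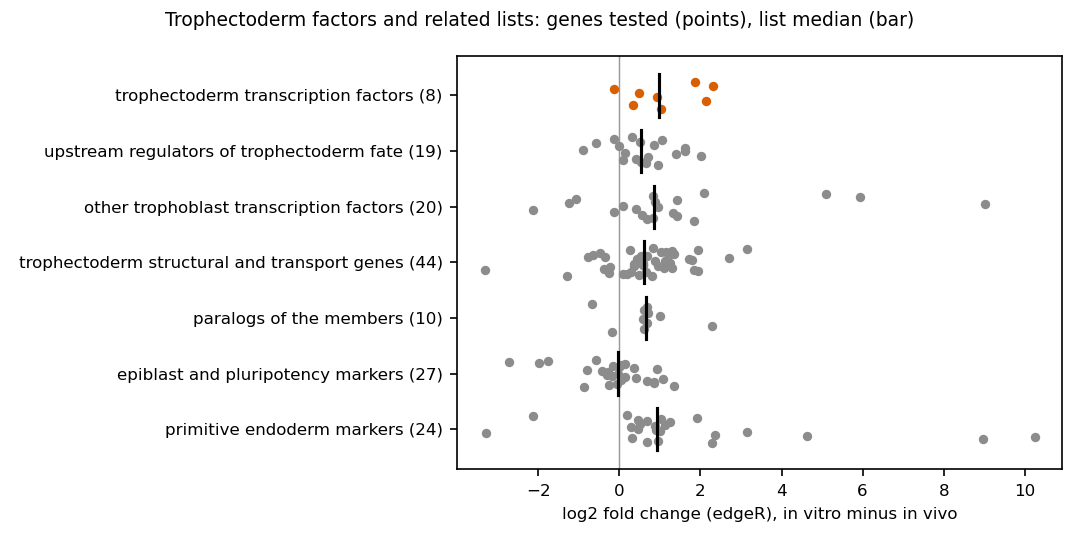
Log2 fold change, in vitro relative to in vivo, by edgeR (horizontal axis) of each tested gene in the trophectoderm factors (orange) and 6 related lists (grey), with the number tested in brackets and a black bar at the median. Medians are 0.98 for the factors, 0.94 for primitive endoderm markers and -0.04 for epiblast markers; points beyond 8 have 0 or nearly 0 counts in vivo, and their fitted folds depend on the prior count.

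Markers of other cells that the samples could hold were summed by list. The 12 cumulus cell markers summed to 4.79 to 5.94 RPKM in vivo and 6.34 to 19.4 RPKM in vitro, and 6 of them, Cyp19a1 and Fshr included, had no count. The highest was Nr5a2, which the embryo itself expresses (21.1 to 27.5 CPM in vivo, 30.4 to 84.8 CPM in vitro). The 12 uterine epithelium markers summed to 8.86 to 39.1 and 24.2 to 64.4 RPKM. Pgr, Ltf and Lcn2 had no count, and the highest values were those of Wfdc2 (41.3 CPM), Foxa2 (34.3 CPM, also on the primitive endoderm list) and Olfm1 (32.8 CPM), each in a cultured library, and Muc1 (15.4 CPM) in vivo. The first 3 of these reached above the highest Cdx2 value of 29.7 CPM. Of this list 4 were tested, with a median log2 fold change of 2.78, 2 with an unadjusted p below 0.05 and in vitro higher (Foxa2 and Olfm1) and 1 with in vitro lower (Muc1). DESeq2 called Foxa2 and Olfm1 higher in vitro, with adjusted p of 2.65e-06 and 0.000512. The part of these genes in the differences of the trophectoderm factors was not tested. The 12 blood and immune markers summed to 3.71 to 9.37 and 0.746 to 4.95 RPKM with Ptprc at 0, and the 6 sperm markers to 0 to 0.144 and 0 to 0.636 RPKM with Prm1 and Prm2 at 0.

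On GRCm38, the coordinates of the count table, Id2 lies at chr12:25093799-25096092 (minus strand), Gata3 at chr2:9857078-9887953 (minus), Gata2 at chr6:88193891-88207032 (plus), Cdx2 at chr5:147300900-147307249 (minus) and Eomes at chr9:118478186-118486132 (plus). Tfap2a lies at chr13:40713802-40738238 (minus), Tfap2c at chr2:172545678-172558622 (plus), Elf5 at chr2:103412098-103450989 (plus), Hand1 at chr11:57828713-57832147 (minus) and Dlx3 at chr11:95120117-95125296 (plus). All are protein-coding, with exon lengths in the count table from 1272 bases in Id2 to 6457 bases in Tfap2a. Gata3, Tfap2c and Elf5 lie on chromosome 2 and Hand1 and Dlx3 on chromosome 11, each megabases apart. Id2 thus had the shortest exon length and the highest level per length.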

How the data were processed

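The values are raw counts by gene, deposited by the authors in 1 table with coordinates and exon lengths. FastQC 0.11.2, DESeq2 and GRCm39 appear in the submitters' processing notes. For aligner and counter, nothing is given in the sources used here. The table's coordinates equal RefSeq GRCm38.p6 for 47551 of 47551 genes compared, so GRCm38 is used. The library kit named in the labels' protocols is transposase-based and marks no strand. Molecules cannot be told from PCR copies, so intervals and the floor of 3 counts (0.215 to 0.525 CPM) cover counting error only. Every value row names a gene.

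Libraries were grouped by title. Counts were fitted with edgeR 4.0.16 (R 4.3.3): filterByExpr by group (14301 genes kept), TMM scaling, robust quasi-likelihood F-test in legacy form, two-sided, Benjamini-Hochberg adjustment over all genes tested, threshold 0.05. The common biological coefficient of variation was 0.727. CPM and RPKM were computed on TMM-scaled totals; 2 prior counts were added for log2 CPM. Alternatives were limma 3.58.1 (voom, quality weights) and DESeq2 1.42.0, with other scalings, filters and libraries left out. Sums and shares were compared by exact permutation over 20 regroupings. The fits were tested on simulated data. Same-numbered libraries did not deviate together (r of -0.0986, 0.096 and -0.0443).

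The members and lists were chosen with earlier results of these data known. Named are all members, up to 4 genes of smallest p per list with a mean of at least 10 CPM in 1 group, 10 set lineage genes, and the 2 genes nearest in pattern to each member. Grhl3, Hopx, Nodal, Wwtr1, Cdx1, Cdx4, Id1, Id3 and Id4 were named after their values were seen. The values of 2 genes that this rule names are not reported here.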

Additional observations from a re-analysis of the deposited data

How the results depend on the processing

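edgeR called 0 of all genes and 0 of the factors; without the filter on low counts it called 391 genes and 1 factor, and in its newer quasi-likelihood form 3 genes and 0 factors. DESeq2 called 473 genes and 1 factor and limma-voom 102 genes and 1 factor. With 1 library left out, DESeq2 called 310, 152 and 938 genes without in vivo 1, 2 and 3, 264, 855 and 373 without in vitro 1, 2 and 3, and 1 to 2 factors, while edgeR called 0. The 1 factor was Id2 throughout, joined in DESeq2 by Gata2 without in vivo 1 and by Elf5 without in vitro 1. Direction was reversed for Eomes without in vitro 3 (-0.03, DESeq2 -0.02), for Tfap2a in limma-voom (-0.06) and without in vitro 3 (-0.23, DESeq2 -0.25), and for Tfap2c without in vivo 1 (0.06, DESeq2 0.07) and without in vitro 3 (0.34, DESeq2 0.34). With 1 library left out, edgeR's values ran from -0.03 to 0.62 for Eomes, -0.23 to 1.01 for Tfap2a and -0.95 to 0.34 for Tfap2c. The cause was not tested. Cdx2, Gata2, Gata3, Elf5 and Id2 kept a positive value in all of the alternatives run. With the replicate number as a block, 0 factors were called and Id2 had a log2 fold change of 1.82 with an adjusted p of 0.499 in edgeR. No label says whether the numbers pair the samples. The difference of summed RPKM, 389, was 53.8 without Id2, a setting chosen after seeing the data, as were the DESeq2 fits without a library. Of the 16 nearest genes, 2 were shared under 1 minus Pearson's correlation. By library totals alone, 260 genes had an unadjusted p below 0.05 with in vitro higher and 942 with in vitro lower, against 731 and 727. Levels near 0.525 CPM cannot be told from 0 in the shallowest library.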
